A study of Mus musculus with 6 samples.

Results

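Arc, Npas4, Bdnf, Ier2, Ier5, Btg2, Klf4 and Maff are genes that neurons and other cells switch on after stimulation, and they lie outside the AP-1, EGR and NR4A families. They were chosen by name, matched through Ensembl identifiers, and make up 8 of the 18732 genes in the authors' deposited table. The table compares RNA bound to tagged ribosomes in the striatum, the input nucleus of the basal ganglia, between mice given morphine and mice given saline. The series holds 3 libraries in each group, and which of them the authors fitted is not stated. All mice carried a Cre recombinase allele at Oprm1, which encodes the mu opioid receptor, and the Cre-dependent ribosomal fusion RosaLSL-GFP-L10a. The sample labels give the Oprm1Cre allele as 1 copy beside a wild-type copy and the series text gives it as Oprm1Cre/Cre, and no age is given. Morphine was injected under the skin at escalating doses of 20, 40, 60 and 100 mg/kg, with 2 injections a day for 5 days, and the controls received saline. The striata in a library came from 2 pooled brains, collected 24 h after dosing ended. GFP-L10a is present wherever the Cre was active at any earlier time, and RNA of untagged cells can come along in such purifications.

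Stimulated neurons let calcium enter, and kinases then act on factors such as CREB, SRF and MEF2 that already sit at the promoters of these genes. Their RNAs usually appear quickly and are short-lived. Some encode transcription factors that switch on later genes, and others, such as Arc and Bdnf, encode proteins that act at synapses directly. In the striatum such genes are widely used as marks of recent neuronal activity, and much of the BDNF protein there is known to arrive in axons from the cortex.

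Promoter sequences of 6 of the 8 genes were matched in RefSeq on GRCm38.p6, with 14 start sites in all, 7 of them of Bdnf and 3 of Maff. Arc and Ier2 had no window, so their promoters were not searched. Each window spans 250 bases before to 50 bases after a start site, written along the gene's own strand. The 4 windows below are shown as examples, 1 per gene, of those that hold the core CGTCA of the cyclic AMP response element, the best known binding sequence of CREB. The core was also in the window of Klf4 and in another of Maff, which are not printed. Capitals mark that core on either strand, and 2 of the cores overlap as the full palindrome TGACGTCA in Btg2 and in Maff.
Npas4, chr19:4989922-4990221, minus strand: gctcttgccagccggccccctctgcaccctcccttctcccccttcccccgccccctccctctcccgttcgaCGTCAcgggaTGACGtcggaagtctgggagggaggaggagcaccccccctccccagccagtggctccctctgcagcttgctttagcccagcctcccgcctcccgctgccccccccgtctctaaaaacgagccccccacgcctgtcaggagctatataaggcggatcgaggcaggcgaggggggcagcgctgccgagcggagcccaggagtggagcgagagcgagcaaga
Btg2, chr1:134079106-134079405, minus strand: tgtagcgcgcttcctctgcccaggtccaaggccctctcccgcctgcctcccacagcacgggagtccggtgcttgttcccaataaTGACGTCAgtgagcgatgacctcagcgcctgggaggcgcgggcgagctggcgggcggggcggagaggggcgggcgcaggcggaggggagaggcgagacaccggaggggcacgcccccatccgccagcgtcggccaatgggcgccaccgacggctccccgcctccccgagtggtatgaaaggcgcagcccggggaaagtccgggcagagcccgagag
Maff, chr15:79347270-79347569, plus strand: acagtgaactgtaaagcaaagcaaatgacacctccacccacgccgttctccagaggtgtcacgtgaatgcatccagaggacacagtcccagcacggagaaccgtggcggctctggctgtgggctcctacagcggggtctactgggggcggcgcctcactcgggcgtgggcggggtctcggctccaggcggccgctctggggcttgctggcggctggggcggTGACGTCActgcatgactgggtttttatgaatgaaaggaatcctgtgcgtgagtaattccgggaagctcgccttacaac
Bdnf, chr2:109692186-109692485, plus strand: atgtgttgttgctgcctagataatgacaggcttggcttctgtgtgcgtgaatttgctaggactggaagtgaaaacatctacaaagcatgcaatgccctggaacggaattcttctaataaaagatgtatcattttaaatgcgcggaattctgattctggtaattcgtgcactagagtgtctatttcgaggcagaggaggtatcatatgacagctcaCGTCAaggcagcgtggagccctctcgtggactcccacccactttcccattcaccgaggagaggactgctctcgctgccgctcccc

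The core CGTCA, searched on both strands, was in 6 of the 14 windows of these genes and in 20.8% of the 32851 promoter windows of the same length. The full TGACGTCA was in 2 of the 14 and in 1.79% of all windows. The AP-1 sequence TGANTCA was in 1 of the 14, against 7.81% of all windows, and GCGNGGGCG, bound by EGR proteins, was in 3, against 5.55%. The CArG box, bound by SRF, was in 0 of the 14, against 1.63% of all windows. None of the 14 windows belongs to Arc or Ier2. These matches are letters in a window and do not show binding. The 7 start sites of Bdnf lead to a shared coding exon, though annotated forms of 249, 257 and 289 residues differ in how the protein begins. The authors' deposited table holds 1 value for the whole gene, so it does not tell which of these promoters was in use.

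Arc rose after morphine, and none of the other genes passed the test. Of the 7 genes with an adjusted p, 1 was higher and 0 were lower at the authors' adjusted p < 0.05 (DESeq2, Wald test with Benjamini-Hochberg adjustment over all genes). That is 14.3% higher, near the 11.8% of all 17279 tested genes. Among coding genes with no predicted signal or membrane segment, the class where the prediction described below placed all 8, 2.80% were higher. With 1 call among 7 genes, the difference from either share was not tested. Lower genes made up 2.01% of all tested genes, and both directions together 13.8%. The other 6 tested genes had adjusted p values from 0.444 to 0.980, and Maff had none. The median log2 fold change of the 7 was 0.28, against -0.01 over all tested genes. A positive log2 fold change is read here as higher in the morphine group, going by the name of the authors' sheet of increases, and all directions below would be opposite if the reference group was morphine.

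**Figure D1:**
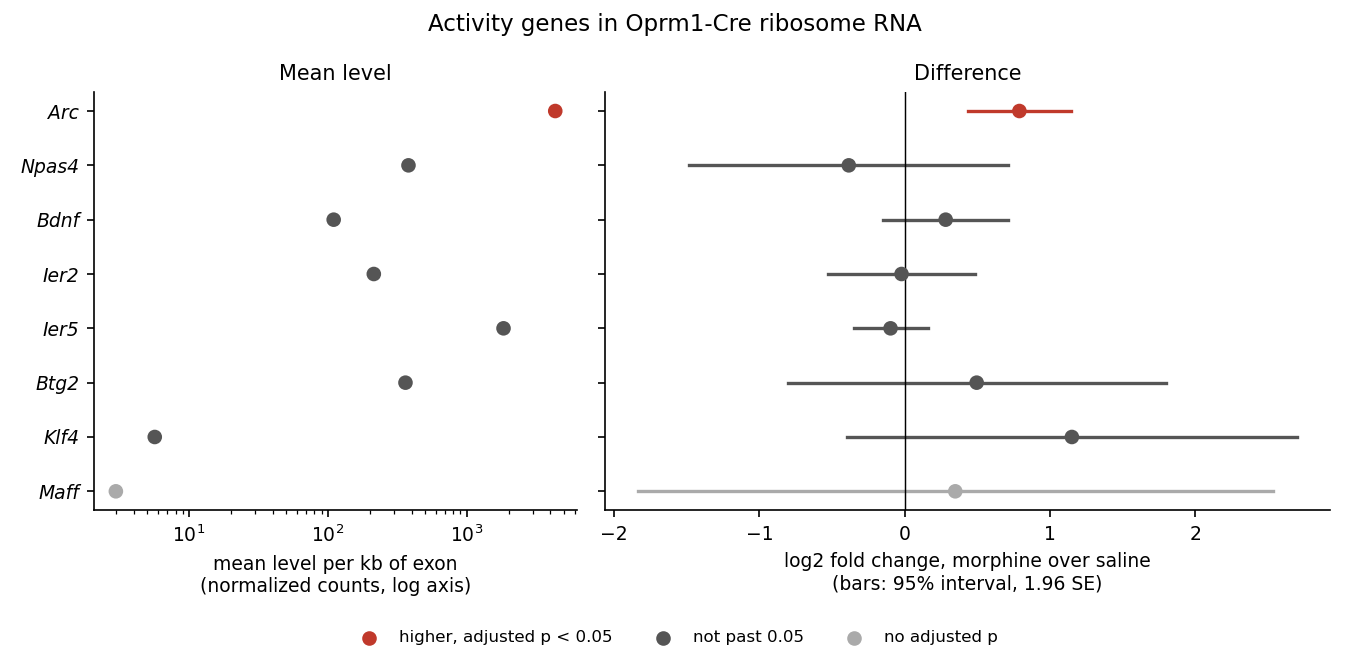
The left panel gives the mean level of each gene per kb of exon in normalized counts on a log axis, and the right panel gives the log2 fold change with its 95% interval (normal, from the SE). Only Arc, with an interval of 0.43 to 1.15, lies wholly to 1 side of 0, and the intervals of Btg2, Klf4 and Maff are the widest.

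Single libraries were not analysed here, so each gene is given by its mean over the fitted libraries and by its difference with the authors' SE. The mean level of these genes spanned 3 orders of magnitude when divided by exon length. Arc stood at 4332 normalized counts per kb and Ier5 at 1838. Npas4 at 380 and Btg2 at 362 were close to each other, followed by Ier2 at 214 and Bdnf at 110. Klf4 at 5.67 and Maff at 2.98 were at the lower end of all measured genes, at the percentiles 8.85 and 3.54, while Arc was at 97.1. No spread over libraries goes with these levels, so whether neighbours in this order differ was not tested.

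Arc encodes a cytoplasmic protein of dendrites and spines that promotes removal of AMPA receptors from synapses and can assemble into capsid-like particles. The gene, ENSMUSG00000022602, lies on chromosome 15 of GRCm38 from 74669083 to 74672570 on the minus strand, and no exon of another gene overlaps it. In the authors' deposited table its mean was 13244 normalized counts and its log2 fold change 0.79 with an SE of 0.18, which is 1.73-fold higher after morphine (adjusted p = 0.000252, DESeq2). The 95% interval of the fold was 1.35 to 2.21. The SE of Arc was 1.41 times the median of the 501 genes nearest in mean level, a ratio exceeded by few genes (percentile 99.1).

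Of 12 genes for proteins reported to work with Arc, among them endocytic proteins, scaffolds and kinases, 0 were higher and 0 lower by the authors' deposited table, with a median log2 fold change of -0.07. The smallest p values there belonged to Sh3gl3, which encodes an endophilin, at -0.28 (SE 0.14, adjusted p = 0.191) and to Cacng2, which encodes stargazin, an auxiliary protein of AMPA receptors, at 0.23 (SE 0.13, adjusted p = 0.306), both as DESeq2 values of the authors' deposited table.

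Npas4 encodes a transcription factor with a basic helix-loop-helix and PAS domains, made almost only in neurons and induced by calcium entry. The gene, ENSMUSG00000045903, lies on chromosome 19 from 4984355 to 4990316. Its log2 fold change in the authors' deposited table was -0.38 with an SE of 0.56 (mean 1573, adjusted p = 0.800, DESeq2). The 95% interval ran from -1.48 to 0.71, or 0.358-fold to 1.64-fold, so a moderate difference in either direction was not detectable. With this SE, a gene had to reach 1.51 on the log2 scale, or 2.86-fold, to pass the threshold.

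Of 9 partners and reported targets of NPAS4, 3 rose and 0 fell. By the authors' deposited table these were Nptx2, which encodes a secreted pentraxin that clusters AMPA receptors, at 1.10 (SE 0.17, adjusted p = 1.95e-08), the potassium channel gene Kcna1 at 0.53 (SE 0.16) and Lingo1, a neuronal membrane protein gene, at 0.39 (SE 0.13). All 3 have a predicted signal or membrane segment. None of the 6 without one passed, and these include the partner genes Arnt, Arnt2 and Arntl. Over all tested genes 11.8% were higher, with 46.4% among those with a predicted segment and 2.80% among coding genes with none.

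Klf4 encodes a zinc finger factor best known from reprogramming of cells to pluripotency, and it is also made in endothelium and in activated neurons. The gene, ENSMUSG00000003032, is on chromosome 4 from 55527143 to 55532466. In the authors' deposited table its log2 fold change was 1.15 with an SE of 0.79 (mean 17.3, adjusted p = 0.444, DESeq2). The 95% interval ran from -0.40 to 2.70. Maff encodes a small MAF protein that pairs with other leucine zipper factors and lacks an activation domain of its own. It is annotated as ENSMUSG00000042622 on chromosome 15 from 79346621 to 79359076. Its mean in the authors' deposited table was 7.72 and its log2 fold change 0.35 with an SE of 1.11, and it has no adjusted p there, like all 1453 genes without one, whose means were at most 10.9. At its SE a difference had to reach 4.39-fold for Klf4 to pass. The interval of its fold was 0.759 to 6.49, and that of Maff 0.280 to 5.79.

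Of 15 tested Kruppel-like factors, Klf4 among them, 0 were higher and 0 lower, with a median log2 fold change of -0.07. Closest was Klf15, a factor induced by glucocorticoids, at 0.53 in the authors' deposited table (SE 0.20, adjusted p = 0.0557), which passed when only genes with a mean of at least 100 were adjusted. The smallest p after it belonged to Klf13 at 0.24 (SE 0.14, adjusted p = 0.330) by the authors' deposited table. Among 10 tested genes of the MAF family and its partners 1 rose, the oxidative stress factor gene Nfe2l2 at 1.16 (SE 0.39, mean 74.6, adjusted p = 0.0245, DESeq2) by the authors' deposited table. Over all tested genes 11.8% were higher, and 2.80% of coding genes with no predicted segment. The other small MAF genes, Mafg at 0.15 (SE 0.16) and Mafk at 0.01 (SE 0.19) in the authors' deposited table, are named here after their values were seen.

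Ier2 and Ier5 are immediate early genes of nuclear proteins, and IER5 is known to act with heat shock factor. Ier2 (ENSMUSG00000053560) spans 84661331 to 84662852 on chromosome 8, and Ier5 (ENSMUSG00000056708) spans 155096361 to 155099636 on chromosome 1. Ier5 gave the narrowest bound of the 8 genes. Its log2 fold change in the authors' deposited table was -0.10 with an SE of 0.13 (mean 6021, adjusted p = 0.774, DESeq2), and the 95% interval of its fold was 0.784 to 1.12. That interval leaves out the size of the Arc difference. Ier2 was at -0.02 with an SE of 0.26 in the authors' deposited table (mean 326, adjusted p = 0.980), with an interval of the fold from 0.693 to 1.40. None of the 4 tested IER genes passed, and Ier3 had 0.31 (SE 0.23, adjusted p = 0.493) by the authors' deposited table. No segment was predicted in 3 of the 4. Higher genes made up 2.80% of coding genes in that class and 11.8% of all tested genes, so a count of 0 is near the background.

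Btg2 encodes a small protein that slows cell division and brings deadenylases to mRNAs, which shortens their poly(A) tails. The gene, ENSMUSG00000020423, is on chromosome 1 from 134075170 to 134079120. Its log2 fold change in the authors' deposited table was 0.50 with an SE of 0.66 (mean 992, adjusted p = 0.775, DESeq2), and the 95% interval ran from 0.572-fold to 3.47-fold. Of 14 genes of its family and of the deadenylases, 1 rose and 0 fell, with a median of -0.01. The riser was Tob2, a relative of Btg2, at 0.49 in the authors' deposited table (SE 0.14, adjusted p = 0.00316). Higher genes made up 11.8% of all tested genes and 2.80% of coding genes with no predicted segment. Tob2 and Btg2 had nearly the same log2 fold change, and their SEs differed.

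Npas4 and Btg2 had SEs far above those of genes measured at like levels. For Npas4 the SE was 3.80 times, and for Btg2 4.16 times, the median of the 501 genes nearest in mean level. Of all 18732 genes 95, or 0.507%, were above a ratio of 2, and no gene lay between 1.63 and 2.78. The ratios of the remaining genes among the 8 ran from 0.969 for Maff to 1.41 for Arc. DESeq2 is known to draw each gene's dispersion toward a trend and to leave genes far above the trend at their own estimate, and the SE grows with the dispersion. The dispersions and the libraries behind them were not analysed here, so the part of single libraries in these SEs was not tested.

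**Figure D2:**
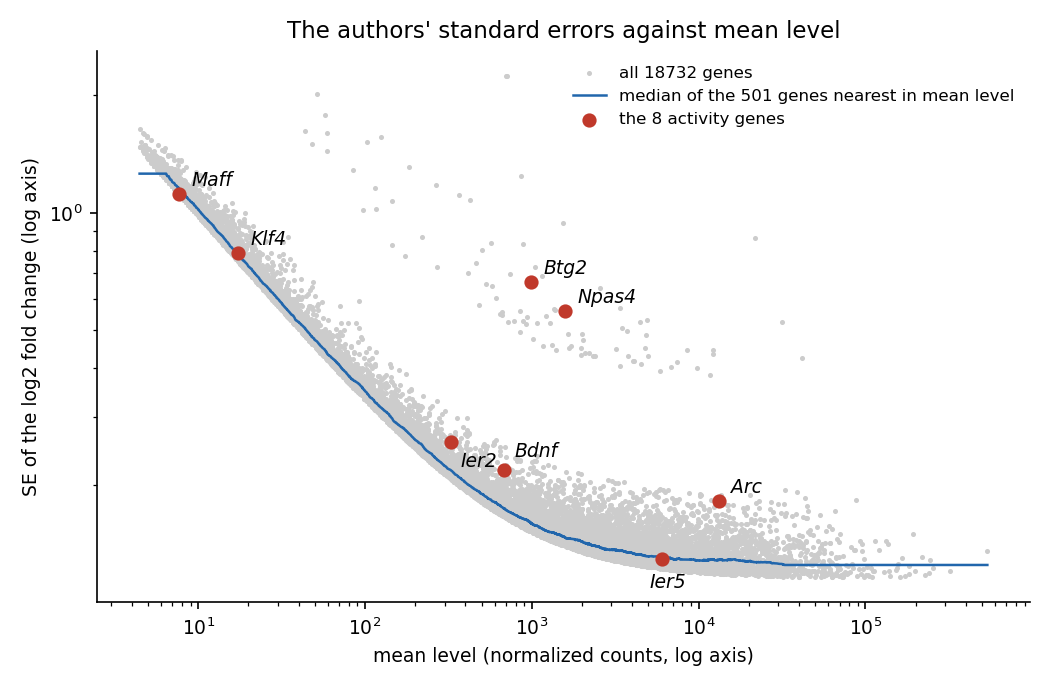
Each grey point is 1 of 18732 genes, with its mean level in normalized counts and the SE of its log2 fold change, both on log axes, and the blue line is the median SE of the 501 genes nearest in mean level. Npas4 and Btg2 lie in the separate upper cloud, at 3.80 and 4.16 times the line, and the other 6 activity genes lie in the main band.

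Bdnf encodes brain-derived neurotrophic factor, a secreted growth factor that is made as a precursor, cut by proteases and bound by the receptor TrkB. The gene, ENSMUSG00000048482, spans 109674700 to 109727007 on chromosome 2, and 14.4% of its exon bases overlap exons of the antisense gene Gm45346 (mean 14.9). Strand use in counting is not given in the sources used here, so reads of the overlap cannot be told apart. In the authors' deposited table Bdnf had a mean of 684 and a log2 fold change of 0.28 with an SE of 0.22 (adjusted p = 0.528, DESeq2). The 95% interval was 0.903-fold to 1.64-fold, and 1.51-fold was the smallest difference that could pass.

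Bdnf and Arc are known to differ in where their proteins are made, and the first 75 coding bases of each are shown for that reason. BDNF begins with a hydrophobic signal sequence that leads its ribosomes to the endoplasmic reticulum, and Arc is made in the cytosol. Capitals mark the codons of the 12 residues of highest mean Kyte-Doolittle hydropathy (a score that is high for oily residues) among the first 40. In Arc that stretch lies from residue 27 on, with a mean of 0.62, and is not shown. The stretch in Bdnf averages 2.09, and Btg2, whose protein is not secreted, reached 2.19, so this measure alone does not separate such proteins.
Bdnf, transcript Bdnf-209, chromosome 2: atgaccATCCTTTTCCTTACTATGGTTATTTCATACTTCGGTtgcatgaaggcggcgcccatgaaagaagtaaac
Arc, transcript Arc-201, chromosome 15: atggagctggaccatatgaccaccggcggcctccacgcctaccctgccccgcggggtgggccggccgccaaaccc

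The comparison as a whole divided by the kind of protein. Among 3608 tested genes whose protein has a predicted signal or membrane segment, 46.4% were higher and the median log2 fold change was 0.58. The 9856 tested coding genes in which none was found had a median of -0.06, and 2.80% of them were higher. The counts of 0 among Arc partners, with 11 of 12 in this class, and among Kruppel-like factors, with 15 of 15, are near that background. The prediction, which reads hydropathy along the longest protein of a gene, placed all 8 activity genes in the class with no segment. It missed Bdnf, whose precursor is known to be secreted. The longest annotated form, of 289 residues, reached 0.54 over 12 of its first 40 residues against a minimum of 2.2. The 249-residue forms reached 2.09, and the 257-residue form reached 2.45 and would have passed. Set against the class with a segment, Bdnf was 0.30 below the class median on the log2 scale. Arc was 0.85 above the median of its own class (adjusted p = 0.000178 after that median was taken off).

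Around Bdnf the receptor and processing genes rose. Of 13 genes for receptors, sorting receptors and proteases of BDNF, 12 were higher and 0 lower in the authors' deposited table, with a median log2 fold change of 0.83 against -0.01 over all tested genes. A predicted segment was present in 12 of the 13, of which 11 rose, beside 46.4% in that class as a whole. The sorting receptors, which carry neurotrophins and their precursors between membranes, all rose. By the authors' deposited table Sorcs1 was at 0.94 (SE 0.15, adjusted p = 1.42e-08), Sorcs2 at 0.84 (SE 0.14), Sort1 at 0.83 (SE 0.15), Sorl1 at 0.84 (SE 0.18) and Sorcs3 at 0.75 (SE 0.20).

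Ntrk2, which encodes TrkB, rose by 0.53 in the authors' deposited table (SE 0.15, 1.44-fold, adjusted p = 0.00568), and its scaffold gene Kidins220 by 0.42 (SE 0.14). The low-affinity receptor gene Ngfr rose by 1.39 from a mean of 53.4 (SE 0.51, adjusted p = 0.0493), by the authors' deposited table, close to the threshold. Among the proteases, Furin, which cuts many precursors, rose by 0.90 in the authors' deposited table (SE 0.15, adjusted p = 3.25e-07). Plat, the gene of tissue plasminogen activator, rose by 1.04 (SE 0.25), Pcsk1 by 0.56 (SE 0.18) and Pcsk7 by 0.48 (SE 0.15) in the authors' deposited table. Pcsk5 was at 0.31 (SE 0.20, adjusted p = 0.420) and did not pass in the authors' deposited table.

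**Figure D3:**
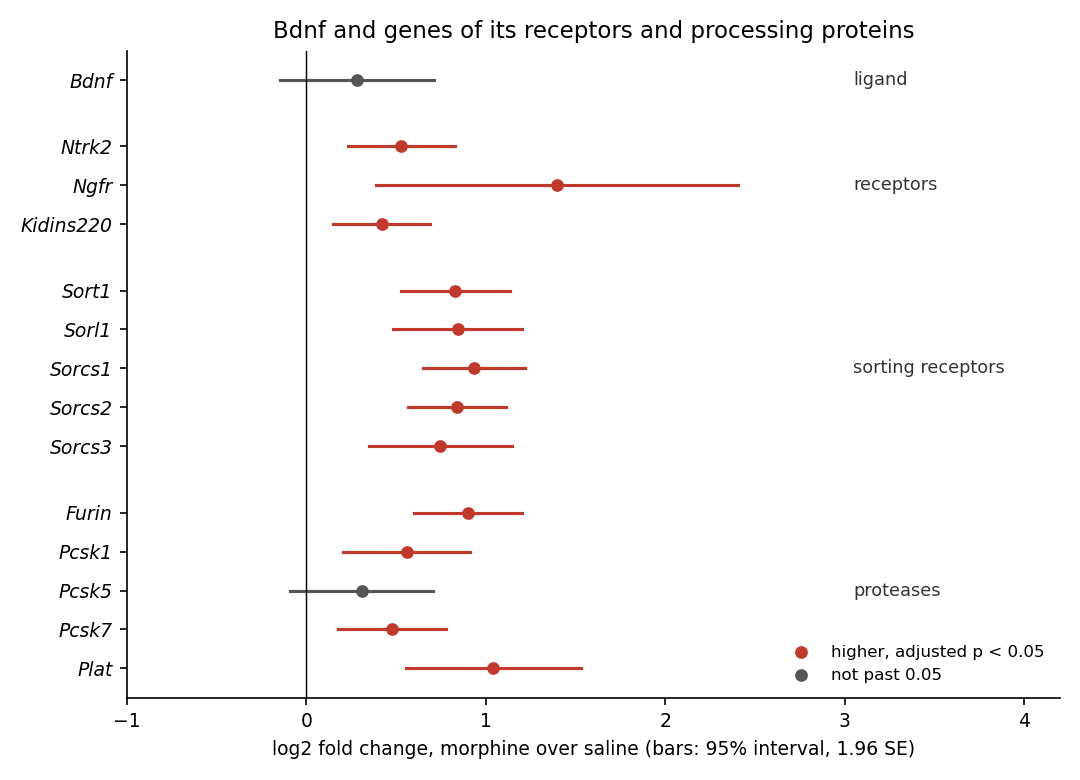
Points are log2 fold changes of morphine over saline and bars are 95% intervals (normal, from the SE), for Bdnf and genes of its receptors, sorting receptors and proteases. The interval of Bdnf, -0.15 to 0.71, includes 0, and those of all 5 sorting receptor genes lie above 0.

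Markers of other cells moved in the same comparison, and many of the genes around Bdnf are also expressed by glia or by cortical neurons. By the authors' deposited table, 7 of 9 tested astrocyte markers rose (median log2 fold change 1.52), 7 of 8 oligodendrocyte markers (1.40), 6 of 7 microglial markers (2.32) and 3 of 7 endothelial and pericyte markers (1.23). Among markers of excitatory neurons of cortex and thalamus 4 of 8 rose (median 0.29), and among those of striatal projection neurons 4 of 13 (median 0.25). In these 6 lists 0 fell. Over all tested genes 11.8% were higher, and 46.4% of those with a predicted segment. Of markers with a predicted segment 6 of 6 rose in the astrocyte list, 5 of 5 in the oligodendrocyte list, 5 of 5 in the microglial list, 3 of 7 in the endothelial list, 2 of 2 in the cortical and thalamic list and 4 of 7 in the striatal list. Of those with none, 1 of 3, 2 of 3 and 1 of 2 rose in the 3 glial lists, 2 of 6 in the cortical and thalamic list and 0 of 6 in the striatal list. The 2 in the microglial list were Ctss at 1.54 (SE 0.44), which rose, and Aif1 at 0.02 (SE 0.59), by the authors' deposited table. Because the rule can miss secreted proteins, as it did Bdnf, the markers with none may include some. Summed levels per group were not analysed here, and the part of these cells in the values of Bdnf, Arc or the other genes was not tested. More cells of a type, more RNA carried along from untagged cells and more RNA per cell cannot be told apart in such bulk samples. Striatal markers were abundant, with Penk at 26760 normalized counts per kb, and the cortical and thalamic marker Slc17a7 was present too, at 4945. Oprm1, whose locus drives the Cre, was at 81.9 per kb, the percentile 42.2 of all genes, and had a log2 fold change of 0.29 in the authors' deposited table (SE 0.18, adjusted p = 0.350).

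Further activity genes were listed by where their protein goes, and the difference between these lists was not tested. Of 14 genes with a secreted or membrane product 7 rose and 0 fell, with a median of 0.58. A segment was predicted in 9 of them, of which 6 rose, beside 46.4% of that whole class. By the authors' deposited table the secretory granule gene Scg2 was at 1.15 (SE 0.18, adjusted p = 1.71e-08), Vgf, a neuropeptide precursor gene, at 0.92 (SE 0.16) and the constitutively active receptor gene Gpr3 at 1.06 (SE 0.24). Nptx2, Plat and Pcsk1, given above, are also in this list, and Ptgs2, the cyclooxygenase gene, completes the 7 at 0.83 (SE 0.28) by the authors' deposited table. Of 26 genes with a cytosolic or nuclear product 2 rose and 0 fell, with a median of 0.14. These were Tiparp, the gene of a mono-ADP-ribosyltransferase, at 0.97 (SE 0.19, adjusted p = 8.81e-06) and the ERK phosphatase gene Dusp5 at 0.68 (SE 0.16, adjusted p = 0.000219) by the authors' deposited table. No segment was predicted in 24 of the 26, and the 2 that rose were among these, beside 2.80% of that whole class.

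In the AP-1 and the EGR and NR4A families, 2 of 7 and 4 of 7 tested genes were higher, and 0 and 1 lower. By the authors' deposited table they include Fosl2 at 0.86 (SE 0.17), Junb at 0.50 (SE 0.16), Nr4a1 at 0.95 (SE 0.16), Egr4 at 0.52 (SE 0.16) and Nr4a3 at 0.45 (SE 0.14), while Nr4a2 fell by 0.54 (SE 0.16). Over all 61 tested activity genes of these lists and the opening list, each counted once, 16 were higher and 1 lower, or 26.2% higher. Of all tested genes in the comparison 11.8% were higher and 2.01% lower. Of the 10 with a predicted segment 6 were higher, or 60.0%, beside 46.4% of that class. Of the 49 with no predicted segment 10 were higher, or 20.4%, beside 2.80% of all coding genes in that class. Those 49 are not all cytosolic or nuclear products. They include Bdnf and 4 genes of the list with a secreted or membrane product, and 1 of these 4, Pcsk1, is among the 10. Arc was 1 of these 10 higher genes.

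Regulators that act on the promoters of activity genes were listed too. Of 30 tested genes for CREB, SRF and MEF2 proteins, their coactivators and kinases, 0 were higher and 0 lower, with a median log2 fold change of 0.0028. All 30 have no predicted segment, and with 2.80% higher in that class a count of 0 is near the background. The smallest p values belonged to Mef2c at -0.40 (SE 0.17, adjusted p = 0.108) and Mef2a at -0.24 (SE 0.12, adjusted p = 0.222) by the authors' deposited table. These are RNA levels, and the activity of such factors is set largely by phosphorylation.

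**Figure D4:**
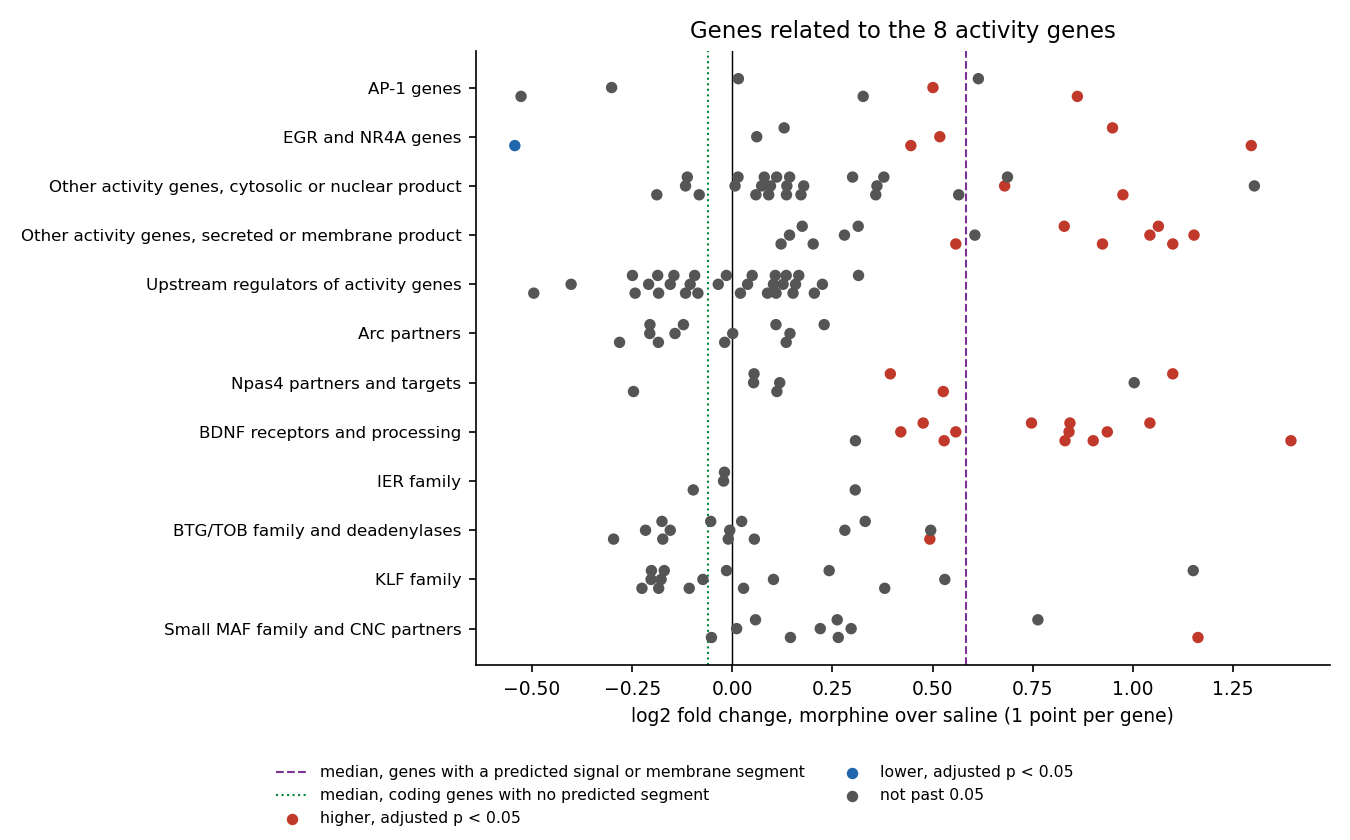
Each point is the log2 fold change of 1 tested gene, in rows by list, with red and blue for genes higher or lower at adjusted p < 0.05 and lines at the class medians, 0.58 with a predicted segment and -0.06 with none. In the row of BDNF receptors and processing 12 of 13 points are red, and in the rows of Arc partners, IER genes, Kruppel-like factors and upstream regulators there are none. The share higher was 11.8% of all tested genes, 46.4% of those with a predicted segment and 2.80% of coding genes with none.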

How the data were processed

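The values are those of the authors' comparison table for morphine against saline. Per the submitters' processing notes, the tools were STAR 2.6.1d and DESeq2 1.20.0, and the builds named are GRCm38 and mm10. Read counter, annotation and model formula are not stated in these sources, and the table's name holds an unexplained term, RM-out, so the libraries fitted are not known. The authors' deposited mean is a signal, the average over libraries of counts that were scaled by size factors. The authors' deposited log2 fold changes and SEs come from their model. The statistic they deposited is a score, the ratio of those values. The authors' deposited p-values are Wald p-values with Benjamini-Hochberg adjustment. No label says whether libraries of a group came from separate batches, so p-values measure only the spread between these libraries, and values per library, depth included, were not analysed here.

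Identifiers were matched to GENCODE M21 symbols, which named 18726 genes and left 6 unnamed. Exon length is the union of annotated exons. The 95% intervals are normal intervals from the SE and cover only the error in the authors' SE. The smallest difference that could pass is the SE times 2.70, the statistic at the largest p called. The segment rule asks for mean hydropathy of at least 1.9 over 19 residues (membrane) or at least 2.2 over 12 of the first 40 residues (signal). Genes with a segment only in the last 50 residues and mitochondrial protein families were in neither class. The 8 genes and all lists were chosen with earlier results of these data known. Named are the 8 genes, Oprm1 and, in each related list, the 4 called genes with the smallest adjusted p, or, in a list with no call, the 2 of smallest p. Further genes of the BDNF list, and Ptgs2, Mafg, Mafk, Penk, Slc17a7, Ctss and Aif1, were named after their values were seen. The list of other neurotrophins and their receptors is not reported here gene by gene, but its genes count in the totals over related lists. The work was done in Python 3.11.15 with pandas 2.3.3 and numpy 2.4.6, scipy 1.17.1 for p-values, matplotlib 3.10.9 for figures and Biopython 1.88 for the hydropathy scale. Only the Wald p, its adjustment and the median over genes of nearest mean were tested on simulated data.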

Additional observations from a re-analysis of the deposited data

How the results depend on the processing

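The number of the 8 genes called stayed at 1 with adjusted p thresholds of 0.01 and 0.1, with adjustment over every gene with a p, with genes of a mean of at least 100, and after taking off the median of genes of similar mean. Over the 4 alternatives run for it, Arc stayed between 0.79 and 0.85 on the log2 scale with adjusted p from 8.74e-05 to 0.000273. The direction of Bdnf turned to -0.30 (adjusted p = 0.619) against the class with a segment, a choice made after seeing the data, and Ier2 turned to 0.040 (adjusted p = 0.981) against the class without one. The other 31 of 33 settings for single genes of the 8 kept direction and call. With adjustment over every gene Maff had an adjusted p of 0.939. In the related lists 31 of 156 tested genes were called, and 20 at a threshold of 0.01. Over all 17279 tested genes 13.8% were called, and 1751 genes at a threshold of 0.01. The count over all genes, 2383, stayed within 1.5 times in all 5 settings, and 54 of 65 counts of single lists did so. No paired analysis was possible because the table holds no values per library. Leaving out replicates, another normalization and edgeR were not run for the same reason. The depth of the libraries is unknown, and low means limit Klf4 and Maff.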

Other observations

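Other activity genes shared the high SEs of Npas4 and Btg2. The ratio of the SE to that of genes of similar mean was 3.34 for Fos, which encodes the best known AP-1 protein, 2.95 for Inhba, which encodes an activin subunit, and 3.61 for Ccn1, which encodes a matrix protein. By the authors' deposited table their log2 fold changes were 0.61 for Fos (SE 0.49, adjusted p = 0.540), 0.31 for Inhba (SE 0.44, adjusted p = 0.791) and 0.28 for Ccn1 (SE 1.07, adjusted p = 0.942), as DESeq2 values. Of 61 tested activity genes 5, or 8.20%, had a ratio above 2, beside 0.507% of all genes and 0.697% of the 12486 whose mean reached 100. Arc, Ier5, Egr1 and Nr4a1, also induced by activity, were not among them. Of the 95 genes above that ratio 9 passed the authors' threshold. These genes were picked out after their values were seen, and the part of single libraries in them was not tested.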
